A study of Mus musculus with 6 samples.

Results

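The Zfp genes are mouse genes whose symbol is Zfp followed by a number, and most of them encode zinc finger proteins that bind DNA or RNA. RNA bisulfite sequencing (RNA BS-seq) was used to read 5-methylcytosine (m5C) in poly(A) RNA of cultured mouse cortical neurons. A Zfp gene was included when at least 5 of its cytosines were listed with at least 20 reads in each of the 6 libraries. This held for 170 Zfp genes, of 342 Zfp symbols with any listed cytosine and of 9767 genes that met the same requirement. Only 9 of the 170 had the same 5 cytosines listed in all 6 libraries. All neurons came from wild-type C57BL/6 embryos at E16.5, pooled male and female, and were kept in culture for 7 days. All of them, the 0 h cultures included, were silenced overnight with 1 μM tetrodotoxin (TTX, a blocker of sodium channels) and 100 μM DL-AP5 (a blocker of NMDA receptors). KCl at 55 mM was then added to depolarize them, and RNA was taken at 0 h, 2 h, or 6 h from 2 biological replicates each. The cultures were not sorted, so RNA of other cells in the dish is included.

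Between 1564646 and 2380612 cytosines were listed per library. A cytosine was listed only when it had at least 10 reads and at least 1 unconverted read, so an unlisted cytosine has no known level. The 6 h replicate 1 library listed the most cytosines and had the highest unconverted share at deeply covered cytosines, 0.115%, against 0.0837% to 0.0869% in the other libraries. In the Zfp genes, 13206 to 25482 cytosines per library had at least 20 reads, with a median coverage of 167 to 230 reads. The largest number was again in 6 h replicate 1. A single Zfp gene had between 5 and 1405 such cytosines in a library.

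Zinc finger proteins of the C2H2 type carry repeated fingers, each folded around a zinc ion by cysteines and histidines, and neighbouring fingers together read a stretch of DNA. Many also carry a KRAB domain, which recruits Trim28 and, through it, the H3K9 methyltransferase Setdb1 and other repressors of chromatin. The Zfp symbol is a naming prefix and not one family, and a few holders such as Zfp36l2 have CCCH fingers and act in mRNA decay. Of the 170 genes, 169 were annotated as protein coding, and 42 lay on chromosome 7, where many zinc finger genes stand in clusters. Another of the 170 genes lay within 200 kb for 66 of them.

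The standard filter asked for 20 or more reads, 6 or more unconverted reads, and a methylation level of 10% or more. Cytosines that passed it are shown with 10 bases on either side, to let the Zfp553 position be compared with others that share its downstream bases. The sequences are those of GRCm38 on the strand of the gene, 5′ to 3′. The capital C is the position, and capital GGG marks G at all of the bases 2 to 4 after it. The first sequence met the filter in both libraries of 2 h, and the others in a single library. The last one lacks GGG and is shown for its high level in 4 libraries.
Zfp553: ggcccgcaggCtGGGgagccg
Zfp263: tatgagaactCgGGGactcta
Zfp428: gagagctggcCgGGGagggac
Zfp580: tgctctttctCaGGGacgccg
Zfp592: taatggattcCgGGGctcaga
Zfp692: actctagctgCaGGGagatcc
Zfp804a: gcaccgcagcCgggcataagg

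The cytosine of Zfp553 was the only position in the 170 genes to pass this filter in both replicates of a time point, and it did so at 2 h. It lies at chr7:127236503 on the plus strand, in the sequence chr7:127236493-127236513. The annotation places it in exon 2 of 2, at base 1229 of the 1773 bases of the coding sequence. The background for this count is low: at 2 h, 1494 of 675761 positions of all genes covered by 20 reads in both replicates passed, 0.221%, against 1 of 3291 Zfp positions. At 0 h none of 3386 Zfp positions passed, beside 0.217% over all genes. At 6 h none of 4983 passed, beside 0.167%. The Zfp shares thus lay below those of all genes at each time point. They rest on 1 position in all, and the difference was not tested.

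At this position, 20 of 281 reads in 0 h replicate 1 were unconverted, a level of 7.12% with a 95% Wilson interval of 4.65% to 10.7%. In 0 h replicate 2, 29 of 237 reads were unconverted, 12.2% (8.66% to 17%). At 2 h the counts were 28 of 103, 27.2% (19.5% to 36.5%), and 34 of 97, 35.1% (26.3% to 45.0%). Both 2 h levels lay above all other levels. At 6 h the counts were 66 of 406, 16.3% (13.0% to 20.2%), and 38 of 491, 7.74% (5.69% to 10.4%), so that 1 of the 6 h libraries lay within the 0 h range and the other above it. The intervals cover counting error only, since copies made by PCR were not separated from independent molecules. The mean levels were 9.68% ± 4 at 0 h, 31.1% ± 6 at 2 h, and 12% ± 6 at 6 h (SD, rounded to whole points, n = 2).

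The level rose by 21.4 percentage points from 0 h to 2 h (Fisher's exact test, two-sided, on the reads of both replicates together, adjusted p = 4.29e-10) and fell by 19.1 points from 2 h to 6 h (Fisher's exact test, adjusted p = 9.79e-09). From 0 h to 6 h the difference was 2.32 points (Fisher's exact test, adjusted p = 0.538). Adjustment was over all 1765, 1768, and 1750 positions tested in these comparisons. They were positions of any gene, mitochondrial genes included, that passed the filter in both replicates of at least 1 time point. Of these selected positions, 13.1% were called higher and 3.46% lower at 2 h than at 0 h, 10.3% lower and 13.0% higher at 6 h than at 2 h, and 9.49% higher and 3.20% lower at 6 h than at 0 h. The position entered because of its level at 2 h, so the sizes of the rise and of the later fall are partly set by that choice. Summed reads leave out the spread between replicates. The replicates differed at 6 h (Fisher's exact test, p = 9.31e-05), where the odds of an unconverted read were 2.31 times as high in replicate 1, the library with the highest unconverted share. They differed less at 0 h (exact p = 0.0511) and 2 h (exact p = 0.284). Limma on replicate levels gave an adjusted p of 0.187 for the rise and of 0.829 for the fall, and a quasi-binomial model gave adjusted p values of 0.375 and 0.948. After adjustment these methods called 0 of all positions in either comparison. At an unadjusted p of at most 0.05, limma had 246 positions from 0 h to 2 h and 105 from 2 h to 6 h, and the quasi-binomial model 237 and 119. The difference of 2.32 points turned to -0.24 without 0 h replicate 1 and to -1.94 without 6 h replicate 1, and was 6.58 with an adjusted p of 0.0104 (Fisher's exact test) without 6 h replicate 2.

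**Figure D1:**
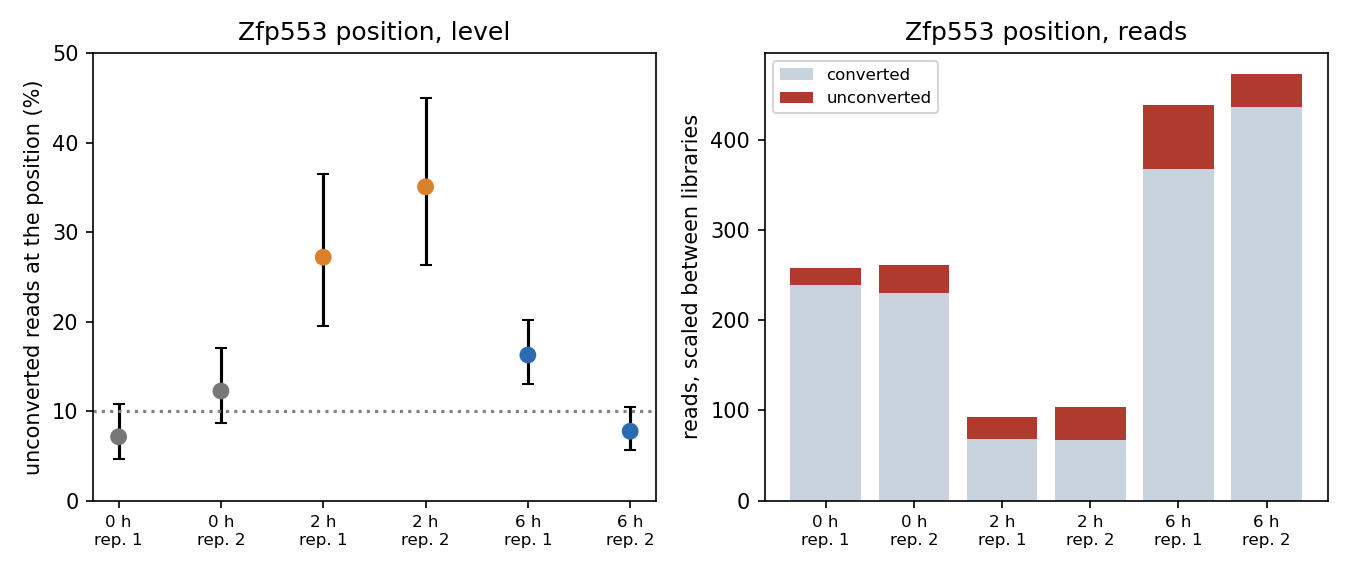
Left, percentage of unconverted reads at the Zfp553 position in each library, with 95% Wilson intervals and the filter of 10% as a dotted line; right, the same reads scaled between libraries, split into converted and unconverted reads. The 2 h libraries have the highest levels, 27.2% and 35.1%, and the fewest converted reads, 67.8 and 67.5.

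The change in level came with a change in coverage. Scaled between libraries, the unconverted reads at the position numbered 18.3 and 32.0 at 0 h, 25.3 and 36.4 after 2 h, and 71.3 and 36.6 after 6 h. The converted reads numbered 239 and 230 at 0 h, 67.8 and 67.5 after 2 h, and 367 and 436 after 6 h. The unconverted reads of 0 h and 2 h overlapped, while the converted reads of the 2 h libraries lay below all others. No other cytosine within 50 bases passed the filter in any library, although 18 were listed there. Over all other cytosines of Zfp553 with at least 20 reads, 30 to 136 per library, the median level was 0.3% to 1.4% and the highest 1.9% to 8.0%.

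The coverage of Zfp553 followed the same course in all windows measured, on both sides of the position. Coverage was measured in windows of 100 bases, taking in each library the median coverage of the listed cytosines with at least 20 reads, for windows that had one in all 6 libraries. Zfp553 had 11 such windows. Its scaled coverage was 233 and 235 reads at 0 h, 95 and 102 after 2 h, and 432 and 464 after 6 h, with no overlap between time points. The log2 fold change was -1.25 ± 0.12 (SE) from 0 h to 2 h and 0.94 ± 0.11 from 0 h to 6 h (edgeR, adjusted p = 0.000765 and 0.000452). Every one of the 11 windows was lower at 2 h and higher at 6 h than at 0 h in the mean of the replicates.

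**Figure D2:**
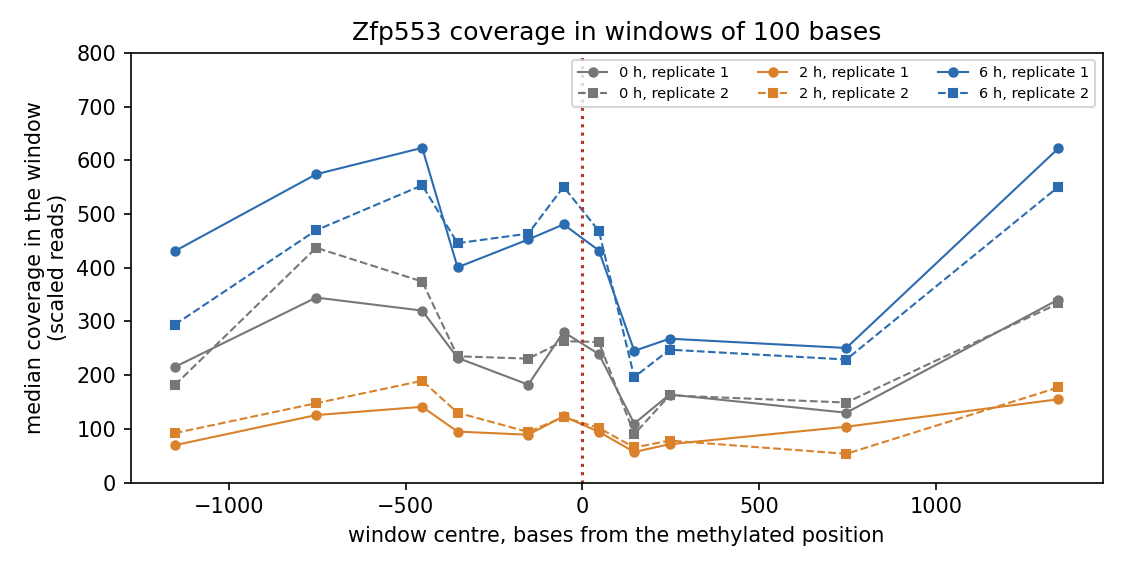
Scaled median coverage of Zfp553 in 11 windows of 100 bases against the distance of the window centre from the methylated position (dotted line), by library. In the mean of the replicates the 2 h libraries lie lowest and the 6 h libraries highest in every window.

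In addition to Zfp553, other Zfp cytosines passed the filter without doing so in both replicates of a time point. In all, 48 positions in 39 genes passed in at least 1 library, between 1 position (0 h replicate 2) and 15 positions (2 h replicate 1) per library. These were 1 of 14471 and 15 of 14554 Zfp positions with at least 20 reads. Over all genes, mitochondrial genes included, 1662 of 1487422 and 2563 of 1694294 positions passed in the same 2 libraries. Of the 48 positions, 46 passed in exactly 1 library, and 27 were not listed in any other. A cytosine in the 3′UTR of Zfp532 passed in 2 h replicate 1 and in 6 h replicate 1, and that of Zfp553 in 4 libraries. Their coverage in the library where they passed had a median of 52.5 reads. By segment, 21 lay in coding sequence, 14 in the 3′UTR, 9 in the 5′UTR, 3 in introns, and 1 in the pseudogene Zfp862-ps. In the deposited sequences, G at all of the bases 2 to 4 downstream was found at 6 of the 48, 12.5%, against 1.68% of 65013 Zfp positions with at least 20 reads in a library. Over all nuclear genes the shares were 7.43% of 4669 passing positions and 1.88% of all positions with at least 20 reads in a library. The cytosine followed by TCCA, the motif known for the methyltransferase NSUN6, was found at 0 of the 48, beside 0.754% of the Zfp positions. A further passing cytosine stood within 50 bases for 5 of them. These were 3 in the 5′UTR of Zfp428, each at 6 unconverted reads in 6 h replicate 1, and 2 in the 3′UTR of Zfp451, each at 7 unconverted reads in 6 h replicate 2.

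Zfp804a and Zfp692 had high levels at low coverage. At chr2:82053642, in the 5′UTR of Zfp804a, whose human counterpart is known from association studies of schizophrenia, 11 of 13 reads were unconverted in 0 h replicate 1 and 8 of 11 in 2 h replicate 2. At 6 h, 29 of 46 and 13 of 18 reads were unconverted. The levels were 84.6%, 72.7%, 63.0%, and 72.2%, and only 6 h replicate 1 reached 20 reads. At chr11:58308359, in an intron of Zfp692, 10 of 11 reads were unconverted in 0 h replicate 1, 2 of 19 in 6 h replicate 1, and 11 of 21 in 6 h replicate 2. Its level ranged from 10.5% to 52.4% between the 6 h replicates, and neither position was listed in all libraries, so neither was compared between time points. Counting the reads of both 6 h replicates together, Zfp553, Zfp692, and Zfp804a all passed at 6 h.

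Among the Zfp genes tested for coverage, most changes were falls at 2 h and rises from 2 h to 6 h. In 100-base windows, a measure chosen after seeing that few cytosines are listed in all libraries, 103 of the 170 genes could be tested, among 7870 genes in all. From 0 h to 2 h, 46 of the 103 fell and 4 rose (edgeR quasi-likelihood test, adjusted p at most 0.05), 44.7% and 3.88%, while over all genes 15.7% fell and 13.1% rose. From 2 h to 6 h, 61 rose and 8 fell, 59.2% and 7.77%, beside 26.9% and 26.2% over all genes. From 0 h to 6 h, 32 rose and 27 fell, 31.1% and 26.2%, close to the 28.4% and 27.8% of all genes. The median log2 fold change of the 103 was -0.43 from 0 h to 2 h, 0.64 from 2 h to 6 h, and 0.05 from 0 h to 6 h, and that of all genes was -0.01, 0.01, and 0.01. The comparisons share their libraries and are not independent of each other. In bulk samples, fewer cells of a type and less RNA per cell cannot be told apart.

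The libraries of 0 h and 2 h did not overlap for 67 genes that were lower and 13 that were higher at 2 h, while over all genes 33.0% were lower and 31.7% higher in this way. From 0 h to 6 h, 50 genes were higher and 41 lower without overlap, beside 41.6% and 40.2% over all genes, and from 2 h to 6 h, 76 were higher and 12 lower, beside 38.8% and 38.5%. Of the 46 genes that fell at 2 h, 35 rose from 2 h to 6 h, 76.1%, beside 56.0% of the 1239 genes of any kind that fell at 2 h. Both counts rest on the same 2 h libraries in each comparison. At 6 h, 19 of the 46 were still below 0 h, 9 were above it, and 18 did not pass the test against 0 h, beside 44.6%, 13.9%, and 41.6% of the 1239. Among the 57 genes that had not fallen at 2 h, 23 were higher and 8 lower at 6 h than at 0 h, beside 31.1% and 24.6% of the 6631 genes of any kind that had not fallen. In all, 19 of the 103 passed the test in no comparison, 18.4%, beside 27.8% over all genes. The spread between the replicates in log2 coverage of Zfp genes was larger at 2 h, with an SD of the difference of 0.37, than at 0 h (0.24) and 6 h (0.21). Over all genes the SD was also largest at 2 h, 0.30, beside 0.22 at 0 h and 0.21 at 6 h.

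**Figure D3:**
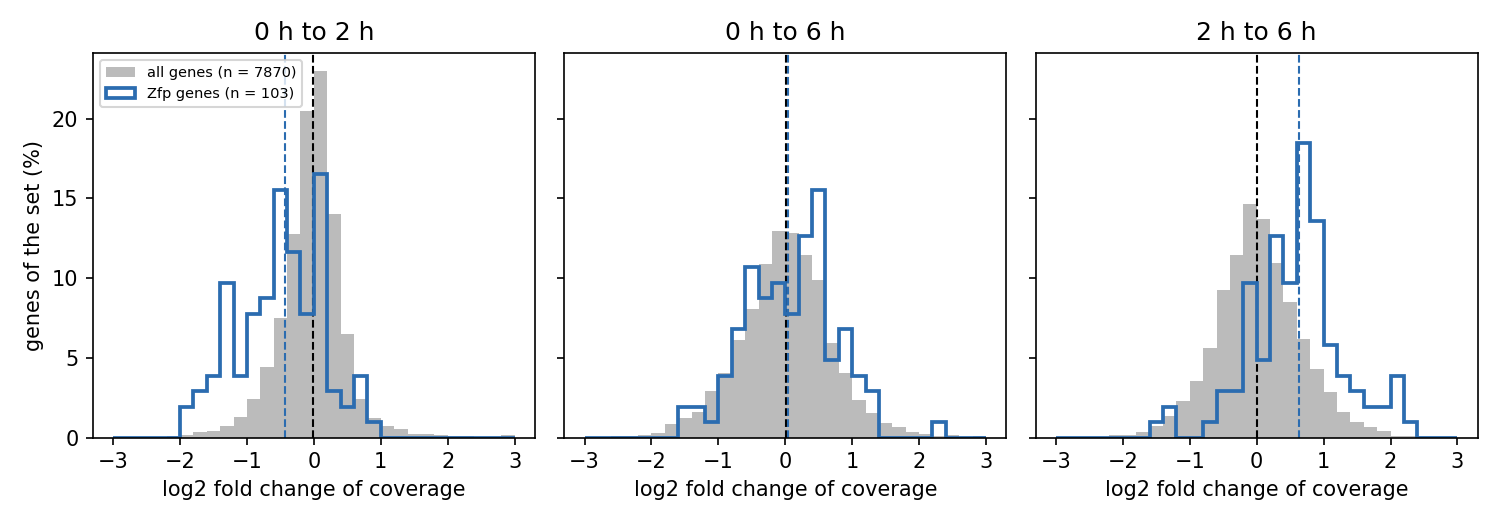
Distribution of the log2 fold change of coverage for the 103 Zfp genes (blue line) and all 7870 genes tested (grey), in percent of the genes of each set, with the medians as dashed lines. The Zfp genes lie lower at 2 h than at 0 h (median -0.43) and higher at 6 h than at 2 h (median 0.64), while from 0 h to 6 h both medians are near 0.

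The genes not tested were the less covered ones. The 67 others had a median listed coverage of 106 and 89.0 reads at 0 h, 60.5 and 48.0 after 2 h, and 76.0 and 103 after 6 h, against 232 and 192, 187 and 141, and 181 and 226 for the tested genes. These values are not scaled between libraries and hold only listed cytosines. A gene with very low coverage at any time point cannot enter, and a cytosine with few reads is listed less often, so the counts do not describe all 170 genes. In the 9 genes with the same 5 or more cytosines listed in all 6 libraries, 2 changed from 0 h to 2 h. Zfp821 was lower at 2 h (log2 fold change -0.55, edgeR, adjusted p = 0.00283) and Zfp207 was higher (0.50, adjusted p = 0.0174), beside 10.1% of all 2592 genes lower and 12.8% higher. The call of Zfp207 was lost when either 0 h library was left out. From 0 h to 6 h, 3 of the 9 rose (Zfp106, Zfp207, and Zfp91) and 2 fell (Zfp704 and Zfp706), beside 29.8% and 28.1% of all genes. From 2 h to 6 h, Zfp821 also rose with the same 3, and Zfp706 fell, beside 23.0% and 23.8%. The median log2 fold change of these 9 genes was -0.04 from 0 h to 2 h, -0.02 from 2 h to 6 h, and -0.11 from 0 h to 6 h. These medians rest on single libraries: the first was 0.01 without 2 h replicate 2, and the second was 0.39 without 2 h replicate 1 and 0.07 without 2 h replicate 2. In the 33 genes with at least 1 cytosine listed in all libraries, 11 fell and 1 rose from 0 h to 2 h (median -0.26), beside 12.2% and 13.4% of the 4657 genes tested in this way. From 2 h to 6 h, 13 of the 33 rose and 5 fell (median 0.15), beside 24.7% and 26.6%. From 0 h to 6 h, 8 of the 33 rose and 13 fell (median -0.20), beside 29.1% and 29.1%.

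The share of genes that fell at 2 h was highest at low coverage, among the Zfp genes and among all genes. The 103 genes were divided in 3 by mean scaled coverage over all libraries, at 240.1 and 376 reads. This mean includes the 2 h libraries, so a fall at 2 h itself moves a gene toward the low range. Part of the trend with coverage is set by that choice. Among the least covered, 20 of 35 Zfp genes fell at 2 h, 57.1%, against 29.2% of 1211 genes of the same coverage range. In the middle range 15 of 34 fell, 44.1% against 23.7% of 1733, and among the most covered 11 of 34, 32.4% against 9.64% of 4926. From 2 h to 6 h, 71.4%, 64.7%, and 41.2% of the Zfp genes rose, against 32.1%, 35.1%, and 22.8% of all genes in these ranges. The Zfp share was thus above that of all genes in each range. The highest range has no upper bound, and Zfp genes reach 1705 reads at most, so coverage is not matched within it. These are descriptions of the genes and carry no test.

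**Figure D4:**
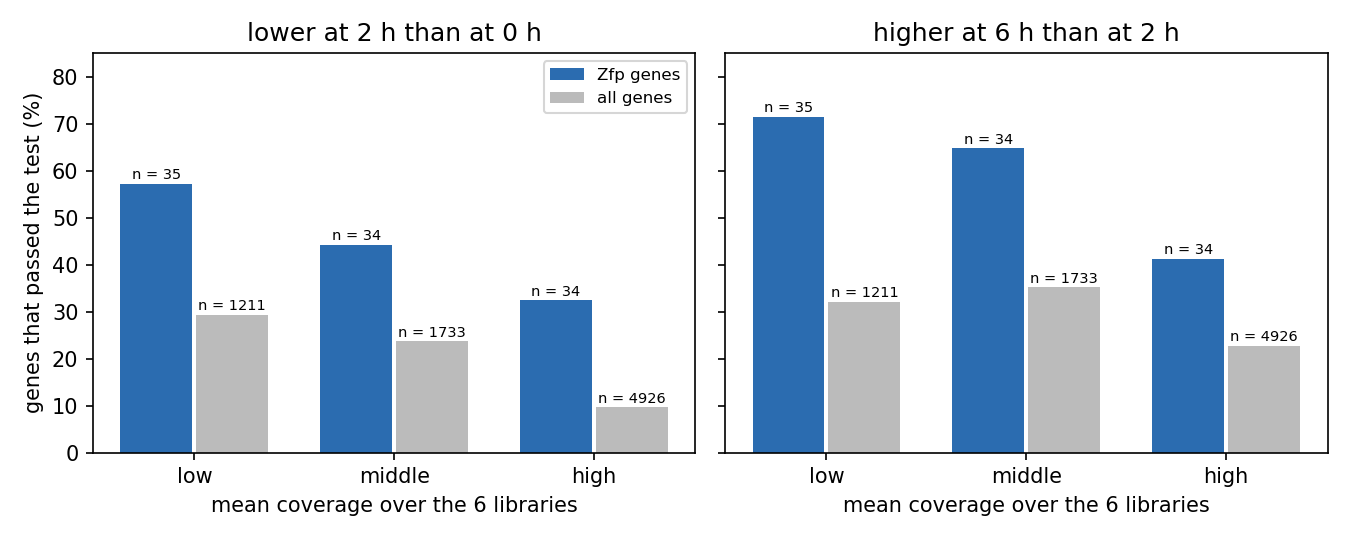
Percentage of genes that passed the edgeR test as lower at 2 h than at 0 h (left) and as higher at 6 h than at 2 h (right), by mean coverage over the 6 libraries, for Zfp genes (blue) and all genes of the same range (grey), with the number of genes above each bar. The blue bar is taller in every range, 57.1% against 29.2% in the low range at 2 h.

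Zfp genes were also divided by whether another one lies nearby. Of the 33 tested genes with another of the 170 genes within 200 kb, 21 fell at 2 h and 2 rose (Zfp248 and Zfp954), with a median log2 fold change of -0.95. Of the 70 without, 25 fell and 2 rose (Zfp335 and Zfp706), with a median of -0.33. From 2 h to 6 h, 24 of the 33 and 37 of the 70 rose. On chromosome 7, 11 of 22 fell at 2 h and 16 rose from 2 h to 6 h. Over all genes, 15.7% fell at 2 h and 26.9% rose from 2 h to 6 h. These groups were not tested against each other, and clustered genes of similar sequence may share reads.

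The largest falls at 2 h were those of Zfp518b and Zfp316. Zfp518b had a scaled coverage of 304 and 296 reads at 0 h, 74.2 and 79.3 after 2 h, and 322 and 293 after 6 h. Its log2 fold change at 2 h was -1.97 ± 0.13 (SE), and the 6 h libraries enclosed those of 0 h. Zfp316 had 332 and 350 reads at 0 h, 93.2 and 97.5 after 2 h, and 179 and 169 after 6 h. It fell by 1.84 on the log2 scale at 2 h and was still lower at 6 h by edgeR (-0.97, adjusted p = 0.000542). Zfp282, a KRAB zinc finger protein, had 724 and 680 reads at 0 h, 239 and 260 after 2 h, and 659 and 661 after 6 h, so that the libraries of 0 h and 6 h both lay far above those of 2 h.

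Zfp292, a large zinc finger protein whose human counterpart is linked to neurodevelopmental disorders, showed the largest rise from 2 h to 6 h. Its coverage was 367 and 292 reads at 0 h, 160 and 79.3 after 2 h, and 564 and 620 after 6 h, a log2 fold change of -1.45 ± 0.28 and then of 2.29 ± 0.28. The 2 h replicates differed, but both lay below every other library. Its fall at 2 h did not pass the test without 0 h replicate 1 (edgeR, adjusted p = 0.0729). Zfp280d had 390 and 321, 149 and 96.4, and 538 and 496 reads at the 3 time points, and Zfp397, a protein with a SCAN domain, had 280 and 254, 126 and 77.1, and 432 and 393. Both were thus lowest at 2 h and above 0 h at 6 h, as was Zfp553. The higher values at 6 h than at 0 h of Zfp280d, Zfp292, and Zfp397 (log2 fold changes of 0.54, 0.84, and 0.62) lost the call in 5 of the alternative settings each, among them leaving out any 1 library of 0 h or 6 h.

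Zfp41, Zfp462, and Zfp668 fell at 2 h and remained lower at 6 h. Zfp41 had 326 and 245 reads at 0 h, 83.2 and 91.0 after 2 h, and 158 and 141 after 6 h. Zfp462, a regulator of chromatin with a role in stem cells, had 452 and 457, 174 and 122, and 271 and 225 reads. Zfp668 had 218 and 190, 57 and 78.2, and 115 and 65.5 reads. The log2 fold changes at 2 h were -1.72, -1.61, and -1.60, and those at 6 h were -0.94, -0.87, and -1.19 (edgeR, adjusted p of 0.00609 or less at 2 h and 0.00739 or less at 6 h). Zfp827, a protein that brings the NuRD complex to telomeres, had 166 and 130 reads at 0 h, 56.1 and 64.3 after 2 h, and 50.8 and 58.7 after 6 h. It was lower at both time points, by -1.31 and -1.44.

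In the windows, 4 of the 103 genes rose at 2 h. Zfp248 had 179 and 202 reads at 0 h, 423 and 327 after 2 h, and 341 and 403 after 6 h, a log2 fold change of 0.98 ± 0.16 at 2 h and 0.97 ± 0.17 at 6 h. Its rise at 2 h did not pass without 0 h replicate 1 (edgeR, adjusted p = 0.0538), nor that of Zfp335 without 0 h replicate 2 (adjusted p = 0.0711). Zfp335, a cofactor of histone methyltransferase complexes needed by neural progenitors, had 107 and 92.8, 154 and 157, and 506 and 524 reads. It had the largest change of any of the 103 genes from 0 h to 6 h, 2.36 ± 0.12, with no overlap between time points. Zfp954 had 275 and 179, 356 and 342, and 527 and 511 reads, a rise of 0.61 at 2 h that was lost without any 1 library except 0 h replicate 1. The rise of Zfp706 at 2 h depended on the measure. Its coverage was 856 and 894 reads at 0 h, 1078 and 1285 after 2 h, and 650 and 740 after 6 h, a log2 fold change of 0.43 at 2 h (edgeR, adjusted p = 0.0325). It was lost without any 1 library except 2 h replicate 1. Over its 130 cytosines listed in all libraries it was 0.05 (edgeR, adjusted p = 0.649).

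A second set of genes was little changed at 2 h and lower at 6 h. Zfp512 had 1201 and 1199 reads at 0 h, 1020 and 1033 after 2 h, and 447 and 375 after 6 h, a log2 fold change of -1.55 ± 0.11 at 6 h. Zfp523, a relative of the transcription factor Zfp143, had 444 and 420, 474 and 508, and 184 and 152 reads. Zfp326, a subunit of a complex that links splicing to RNA polymerase II, had 552 and 506, 555 and 562, and 232 and 196 reads. All 3 were lower at 6 h than at 2 h in both replicates, by -1.32, -1.55, and -1.38 (edgeR, adjusted p = 0.000246, 0.000232, and 0.000282). Their change at 2 h did not pass the test (log2 fold changes of -0.23, 0.18, and 0.08).

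Beside Zfp335 and Zfp954, the largest rises at 6 h were those of 6 genes whose change at 2 h did not pass the test in the windows. Zfp207, which binds Bub3 at the mitotic spindle, had 305 and 303 reads at 0 h, 368 and 292 after 2 h, and 681 and 693 after 6 h. Over the cytosines listed in all libraries it was higher at 2 h, a call that rests on both 0 h libraries. Zfp609, which works with the cohesin loader Nipbl, had 302 and 252, 298 and 296, and 563 and 550 reads, and Zfp68 had 216 and 200, 228 and 134, and 510.0 and 491. In these 3 genes both 6 h libraries lay above all others, with log2 fold changes from 0 h to 6 h of 1.18, 1.00, and 1.26. Zfp516, a transcription factor of brown fat, had the lowest coverage of them, 58.6 and 68.5, 94.1 and 88.9, and 164 and 133 reads. Zfp131, a BTB zinc finger protein, had 217 and 391, 517 and 416, and 913 and 549 reads, and Zfp711, an X-linked gene whose human counterpart is linked to intellectual disability, had 601 and 422, 1228 and 545, and 1092 and 979. The replicates of Zfp131 and Zfp711 differed widely, and their log2 fold changes at 6 h, 1.27 and 1.01, had standard errors of 0.32 and 0.35. The rise of Zfp131 was lost without 0 h replicate 1 or 6 h replicate 1, and that of Zfp711 without any 1 library of 0 h or 6 h.

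The 3 genes with the highest coverage in the windows were Zfp771, Zfp330, and Zfp706. Zfp771 had 1703 and 1793 reads at 0 h, 1729 and 1859 after 2 h, and 1599 and 1547 after 6 h, and Zfp330 had 1505 and 1471, 1302 and 1512, and 1548 and 1414. Neither passed the test in any comparison, and their log2 fold changes lay between -0.19 and 0.07.

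**Figure D5:**
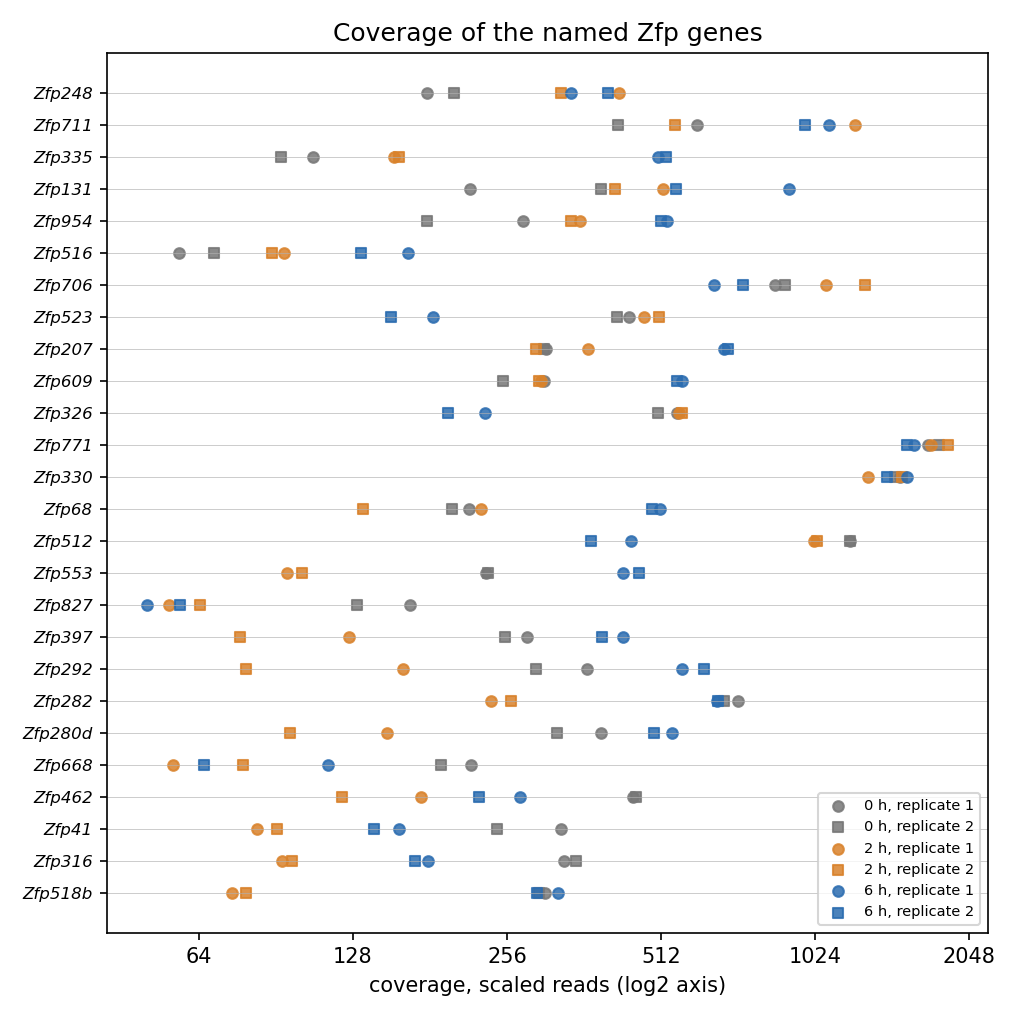
Scaled coverage (log2 axis) of the 26 named Zfp genes in each library, ordered by the log2 fold change from 0 h to 2 h; circles and squares are replicates 1 and 2. In the lowest rows, such as Zfp518b and Zfp316, the 2 h libraries lie far left of the others, and for Zfp512, Zfp523, and Zfp326 only the 6 h libraries do.

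Other zinc finger genes were set beside the Zfp genes. Over all genes, 15.7% fell and 13.1% rose at 2 h, and 26.9% rose and 26.2% fell from 2 h to 6 h. Of 13 tested Zbtb genes, whose products join a BTB domain to zinc fingers, 7 fell and 1 rose at 2 h, and from 2 h to 6 h 10 rose and 2, Zbtb11 and Zbtb12, fell. Their median log2 fold changes were -0.65 and 0.76. Zbtb24 had 242 and 205 reads at 0 h, 81.4 and 80.3 after 2 h, and 251 and 254 after 6 h, and Zbtb11, the only one that rose at 2 h, had 353 and 298, 988 and 736, and 471 and 415. Of 5 Zkscan and Zscan genes, Zkscan3 and Zscan21 fell at 2 h and none rose. Of 7 Klf genes, Klf7 and Klf13 fell and Klf6, Klf9, and Klf16 rose at 2 h. Klf7, known for axon growth, changed by -1.69 and Klf9 by 1.14. Of 8 other C2H2 factors, Bcl11b and Ctcf fell at 2 h (-0.58 and -0.43), Yy1 rose (1.5), and the other 5 did not pass the test. Zic1, the only Zic gene tested, did not pass at 2 h.

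Of the 19 listed partners of KRAB zinc finger proteins, 15 were tested. At 2 h, 4 fell and 1 rose, with a median log2 fold change of -0.13, and from 2 h to 6 h, 6 rose and 1, the remodeller Chd3, fell. In shares, 26.7% fell and 6.67% rose at 2 h, beside 15.7% and 13.1% over all genes, and 40.0% rose from 2 h to 6 h, beside 26.9%. The genes that fell at 2 h were Smarcad1, a chromatin remodeller (-1.08), Atf7ip, which stabilizes Setdb1 (-0.93), Setdb1 itself (-0.62), and the DNA methyltransferase Dnmt1 (-0.42). Trim28, the corepressor that KRAB domains bind, rose by edgeR (0.35, adjusted p = 0.0147). Its coverage was 2252 and 2250 reads at 0 h, 2844 and 2877 after 2 h, and 2914 and 2786 after 6 h. Both libraries of 2 h and 6 h thus lay above those of 0 h.

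The cultures were checked by genes of known behaviour. Of 9 genes induced by depolarization, 4 could be tested, and all 4 rose at 2 h, from 39.4 and 40.9 to 5848 and 6459 reads for Fos. All 7 neuron markers were tested, and their summed coverage was 23453 and 22065 reads at 0 h, 19667 and 21463 after 2 h, and 19404 and 19622 after 6 h. Among them Tubb3 fell at 2 h and 6 h (log2 fold changes of -0.84 and -1.07) and Snap25 rose (0.52 and 0.93), and the other 5 did not pass the test against 0 h. Of the 6 astrocyte markers 5 were tested, summing to 5967 to 6427 reads at 0 h and 2 h and to 4800 and 4810 at 6 h, where 3 were lower than at 0 h. For the oligodendrocyte lineage, the markers Olig1, Olig2, Mbp, and Pdgfra were tested. Their summed coverage was 2865 and 3009 reads at 0 h, 2175 and 2255 after 2 h, and 3352 and 3481 after 6 h, and Olig1, Mbp, and Pdgfra were lower at 2 h. This sum moved in the same direction as the Zfp genes, and its part in their change was not tested. The microglia marker Cx3cr1 had 337 and 328 reads at 0 h, 259 and 292 after 2 h, and 229 and 205 after 6 h. It fell from 0 h to 6 h (log2 fold change -0.62) and from 2 h to 6 h (-0.34). None of the 3 endothelium markers was tested. For dividing progenitors, 4 of 6 markers summed to 1878 to 2718 reads, with Hes5 (log2 fold change -1.15) and Top2a (-0.40) lower at 2 h. The others, Nes (0.28) and Mki67 (0.21), did not pass the test at 2 h. From 0 h to 6 h, 2 of the 4 progenitor markers fell and 1, Nes, rose (0.76, edgeR, adjusted p = 0.0022).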

How the data were processed

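The 6 RNA BS-seq libraries hold 2 biological replicates per time point of KCl. Trimmed reads were aligned by the authors to GRCm38 (mm10) with meRanTK, and they deposited, per library and cytosine, read counts (coverage and unconverted reads), without normalization, and the methylation level as a fraction of reads. The p-values deposited with each position were 0 throughout and were not used. The authors' filters on single reads, signal to noise ratio, false discovery rate, and predicted secondary structure were not repeated.

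The members and gene lists were chosen with earlier results of these data known. The 5 cytosines of a gene were not required to be the same in each library, since that would leave 9 genes and omit Zfp553, and positions naming several genes were left out. The coverage test first set out used cytosines listed in all libraries. The window measure was added after seeing the data: medians over windows of 100 bases, for genes with at least 3 windows, rounded, scaled by TMM, and tested with the edgeR quasi-likelihood test over all 6 libraries, with Benjamini-Hochberg adjustment over all genes at 0.05. "Rose" and "fell" refer to that threshold. Scaled reads are divided by library size and TMM factor. Levels were tested by Fisher's exact test on summed reads at positions that passed the filter in both replicates of at least 1 time point and had at least 10 reads in the 4 libraries. Named genes were Zfp553, the 8 largest falls and rises from 0 h to either later time and the 4 largest from 2 h to 6 h among genes past the threshold whose libraries did not overlap, and the 3 most covered genes; Zfp804a, Zfp692, and the other genes with printed sequences were chosen after their values were seen. The positions were placed with GENCODE M21, and the 43 sequences checked were equal to GRCm38. The alternatives were DESeq2, RLE factors, limma, a quasi-binomial model, other minimums, window sizes, the replicate block, and leaving out each replicate. The scripts were tested on simulated data. Python 3.11.15, pandas 2.3.3, R 4.3.3, edgeR 4.0.16, limma 3.58.1, and DESeq2 1.42.0 were used.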

Additional observations from a re-analysis of the deposited data

How the results depend on the processing

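In the windows, the median log2 fold change of the Zfp genes stayed between -0.52 and -0.35 for 0 h vs. 2 h, between 0.54 and 0.65 for 2 h vs. 6 h, and between 0.01 and 0.15 for 0 h vs. 6 h under every alternative run. The alternatives tested 82 to 139 Zfp genes (103 with a replicate left out), so their counts have different bases. Leaving out a replicate changed how many of all genes passed. With at least 1 window, 60 of 139 Zfp genes fell and 5 rose at 2 h, beside 1400 and 1273 of 9541 genes. From 2 h to 6 h, 80 rose and 13 fell, beside 2468 and 2481. With at least 5 windows, 36 of 82 fell and 3 rose at 2 h, beside 1108 and 846 of 6840. From 2 h to 6 h, 46 rose and 8 fell, beside 1867 and 1776. The number that fell at 2 h was 36 to 60, and the number that rose from 2 h to 6 h was 43 to 80. Leaving out 1 replicate gave 1 to 3 genes higher at 2 h than at 0 h, 20 to 36 higher at 6 h than at 0 h (20 and 21 without 6 h replicate 1 or 2), and 5 to 9 lower at 6 h than at 2 h (5 without 6 h replicate 1), and genes with at least 1 window gave 13 of the last. For the 24 genes with calls in the windows, 41 of 56 calls held in all alternatives, and 53 of 772 values lost the call, 41 of them with a replicate left out; none changed direction.

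With cytosines listed in all libraries, 2, 5, and 5 of 9 genes were called from 0 h to 2 h, from 0 h to 6 h, and from 2 h to 6 h, against 50, 59, and 69 of 103 in windows. With at least 1 shared cytosine the counts were 12, 21, and 18 of 33 genes, beside 25.6%, 58.2%, and 51.3% of all 4657 genes. With at least 10 it was 1 of 7 for 0 h vs. 2 h, beside 22.5% of all genes, and with a replicate left out 1 to 3, 3 to 7, and 3 to 6. The choice of cytosines sets how many of the 170 genes can be tested, 9 when they must be the same in all libraries.

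A single library in place of both gave 1 and 5 methylated positions at 0 h, 9 and 15 after 2 h, and 10 and 12 after 6 h. At 6 h a coverage of at least 10 gave 1, and summed reads gave 3. At the Zfp553 position, the difference of 21.4 points for 0 h vs. 2 h and of -19.1 points for 2 h vs. 6 h lost the call with limma and with the quasi-binomial model, which include the spread between replicates and called none of all positions after adjustment (at an unadjusted p of at most 0.05, 246 and 105 with limma and 237 and 119 with the quasi-binomial model). For 0 h vs. 6 h it ranged from -1.94 to 6.58 points with a replicate left out and was -0.24 without 0 h replicate 1.

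Deviations of samples with the same replicate number correlated at 0.23 (0 h and 2 h), -0.07 (0 h and 6 h), and -0.10 (2 h and 6 h). With 2 replicates per time point, these values cannot decide whether the numbers pair the samples. With the replicate number as a block, 47 genes fell and 4 rose at 2 h in windows, 2 of 9 genes were called with shared cytosines, and the Zfp553 difference kept its call (21.4 points, Cochran-Mantel-Haenszel test, adjusted p = 8.17e-10). With 2 samples per group, p-values measure the spread between those cultures only.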
